A study of Drosophila melanogaster with 17 samples.

Results

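Long non-coding RNA (lncRNA) genes were examined in RNA from progenitor cells sorted from the guts of adult virgin female flies (Drosophila melanogaster). The set was selected on level and name: it held the genes whose FlyBase symbol carries the lncRNA prefix and whose mean level over the 17 libraries was at least 1 CPM, where CPM is the read count scaled to a common library size. It comprised 219 of the 17737 genes in the count table and of the 1892 genes with that prefix, of which 503 were never counted in any library. Genes were chosen by their mean level over all groups, so levels are given as a description, and the tests below concern differences between groups. Symbols are given without the prefix.

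Long non-coding RNAs are transcripts with no recognised protein product. Some act in the nucleus, as scaffolds for proteins on chromatin or in nuclear bodies, some are the precursors of microRNAs, and for most no role is recorded. In the fly midgut, progenitor cells are the stem cells and their undifferentiated daughters, the enteroblasts. Notch is the receptor whose activity in the daughter directs it to the enterocyte fate through genes of the E(spl) complex, and loss of Notch in progenitors is known to give tumours of stem cells and hormone-producing enteroendocrine cells.

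The study asked how Notch knockdown and the gut bacteria alter expression in progenitor cells. Notch RNAi flies (labelled esgts/NRNAi) were associated with L. brevis (n = 3), associated with L. plantarum (n = 3) or kept germ-free (n = 3). Control flies (labelled esgts) were associated with L. brevis (n = 3), associated with L. plantarum (n = 3) or kept germ-free (n = 2, after 1 sample was lost when RNA was extracted). All flies carried the temperature-sensitive escargot driver, which is active in progenitors, and spent 5 days at 25 °C, a night with or without bacteria, and 5 days at 29 °C, the temperature at which such a driver is active. Each library came from cells of 100 pooled guts, gated as small and positive for green fluorescent protein, so a library is a pool of animals.

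Total counts ran from 24192918 to 38237532 per library. Notch itself lay between 52.8 and 82.9 CPM in the 9 Notch RNAi libraries, against 165.7 to 223.6 CPM in the 8 control libraries, with no overlap. The summed level of 4 measured progenitor markers, of 6 listed, was 289 to 343 CPM in Notch RNAi libraries and 737 to 869 CPM in control libraries, and none of the 4 averaged under 1 CPM in either genotype. The progenitor list includes Notch itself, the target of the RNAi, so part of this difference was set by the knockdown. The summed level of 10 enteroendocrine markers was 16430 to 52520 CPM in Notch RNAi libraries and 12630 to 20410 CPM in control libraries, and that of 8 enterocyte markers was 5766 to 22350 CPM and 9241 to 22190 CPM. Transcripts of differentiated cells were therefore present in every library, and in these bulk samples fewer cells of a type and less RNA per cell cannot be told apart. Visceral muscle markers summed to 16.3 to 121 CPM in Notch RNAi libraries and to 16.7 to 789.6 CPM in control libraries, with the highest sum in L. brevis control replicate 3, without which 106 in place of 107 lncRNA genes were called for Notch RNAi in L. brevis flies. Neuron and glia markers summed to 185 to 281 CPM and 179 to 318 CPM. For the 5 haemocyte markers the sums were 8.6 to 16.8 CPM and 11.7 to 21.2 CPM, with 4 of the 5 averaging under 1 CPM in each genotype. The ovary, fat body and testis lists each stayed at or under 2.3 CPM in sum in every library. The part that these cell-type differences take in the results below was not tested.

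Most lncRNA genes were expressed at low levels. Their median was 3.34 CPM, against 28.1 CPM for the 8832 protein-coding genes at or above the same threshold, and 130 of the 219 lay below 5 CPM. At the upper end 17 genes reached 50 CPM, and 133 reached 1 CPM in every library. At the threshold, the nearest genes inside were CR45433 (1.017 CPM), CR45036 (1.021 CPM) and CR45251 (1.029 CPM), and the nearest outside were CR45128 (0.981 CPM), Irar (0.982 CPM) and CR45404 (0.982 CPM). A mean level under 1 CPM was found in Notch RNAi libraries for 21 genes and in control libraries for 8 genes, so these entered the set through the other genotype and had to differ. The genes were spread over 3R (48 genes), 3L (44), X (42), 2R (40), 2L (40) and chromosome 4 (5). Their median exon length was 827 bases, 119 had 1 exon, and 11 had an annotated transposon within an exon.

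Use of strand in the counting is not given in the sources used here, so reads of overlapping genes cannot be told apart with certainty. In the Ensembl annotation of assembly BDGP6, 34 of the lncRNA genes shared exon sequence with a gene on the same strand and 45 with a gene on the opposite strand. A further 50 lay in an intron of another gene, and 90 overlapped no other gene. Transposons, genes for small, transfer or ribosomal RNAs, and genes within an intron of the lncRNA gene itself were not counted as overlaps. Values of the 79 genes with exon overlap are uncertain for this reason.

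Per kilobase of exon, the highest levels belonged to CR40469 (X:122493-122706, plus strand), at 46630 CPM per kb, and CR34335 (X:3545750-3546110, minus strand, in an intron of DIP-alpha), at 38040 CPM per kb. These are short exon models of 214 and 361 bases, and no role is stated here for either. In Notch RNAi libraries CR34335 and CR40469 had nearly the same level in CPM, such as 4703 and 4738 CPM in L. brevis replicate 1 and 10580 and 10770 CPM in germ-free replicate 3, whereas in L. brevis control replicate 1 they had 25860 and 16110 CPM. Whether their reads map to more than 1 place or come from other structural RNAs was not tested, so they may not be separate measurements. Next came CR42491 at 1441 CPM per kb, which shares 50.5% of its exon with the ribosomal protein gene RpL22 and hosts a small nucleolar RNA. The alphagamma-element (CR32865), a repeated unit of the heat-shock locus that holds Hsp70 genes, followed at 277 CPM per kb. CR45607, whose nearest coding gene is the cytokine gene upd2 at 1608 bases, had 206 CPM per kb, and noe had 183 CPM per kb. The nuclear transcript Hsromega ranked 14th on this scale, at 67.8 CPM per kb over its 21710 bases.

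The 219 genes took 1.44% to 2.83% of the counts of a Notch RNAi library and 2.50% to 4.88% of those of a control library. Without CR34335 and CR40469 these shares were 0.50% to 0.69% and 0.56% to 0.71%. CR34335 had 4703, 3500 and 10290 CPM in L. brevis, 6488, 7024 and 10370 CPM in L. plantarum and 5617, 8256 and 10580 CPM in germ-free Notch RNAi libraries. In controls it had 25860, 23720 and 17250 CPM with L. brevis, 16440, 27360 and 28370 CPM with L. plantarum, and 16480 and 11150 CPM in germ-free flies. Every control library exceeded every Notch RNAi library, although libraries of the same group were spread widely. The mean log2 fold change was -1.40 (SE 0.23, edgeR adjusted p = 0.000178). CR40469 fell by 0.74 on the log2 scale (SE 0.24, edgeR adjusted p = 0.0167) with overlapping groups, and without germ-free control replicate 1 its edgeR adjusted p was 0.0516. DIP-alpha, the gene whose intron holds CR34335, had a log2 fold change of -0.04 (edgeR adjusted p = 0.919). Ribosomal RNA genes took 10.6% to 18.4% of the counts in Notch RNAi libraries and 12.4% to 19.9% in control libraries. The part of that share in these values was not tested.

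Notch knockdown, averaged over the 3 microbiome conditions, was accompanied by lower levels of lncRNA genes more often than by higher levels. At an edgeR adjusted p under 0.05, 134 of the 219 genes were called (61.2%), with 46 higher (21.0%) and 88 lower (40.2%). Among all 11786 genes tested, 56.6% were called, 29.6% higher and 26.9% lower. Among the other 9477 genes at a mean of at least 1 CPM, 61.4% were called, 32.1% higher and 29.3% lower. The share of lncRNA genes called in either direction was therefore close to that of other genes of the same minimum level. These counts include the genes that entered the set through 1 genotype and had to differ. Of the 21 under 1 CPM on average in Notch RNAi libraries 19 were called lower, and all 8 under 1 CPM in control libraries were called higher. Among the 190 genes at or above 1 CPM in both genotypes, 38 were higher and 69 lower. The shares of other genes above were not limited in this way, so they are not a like background for these counts. The median log2 fold change was -0.16 over the 219 genes and 0.02 over all genes tested. Of the 333 antisense RNA genes at the same threshold, 23.4% were higher and 28.8% lower, with a median of 0.01.

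**Figure D1:**
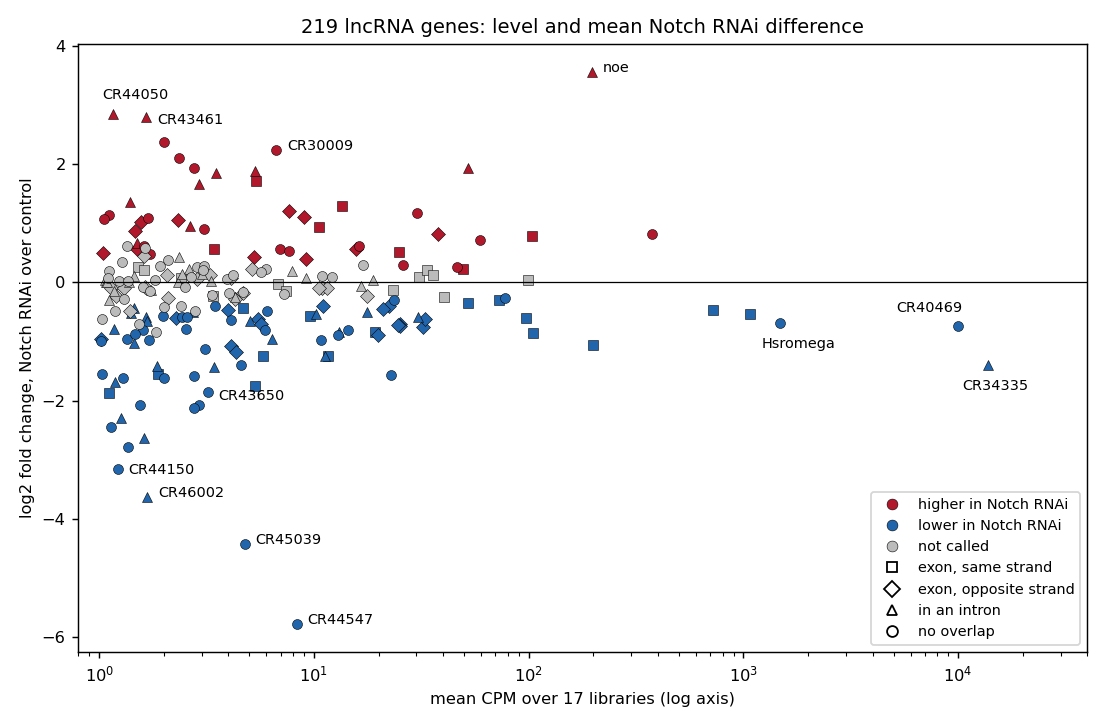
Mean level over the 17 libraries in CPM (log axis) against the log2 fold change of Notch RNAi over control, averaged over the 3 microbiome conditions, for the 219 lncRNA genes. Colour gives the edgeR call (46 higher, 88 lower) and the symbol the overlap class; the falls reach -5.79 (CR44547) and the rises 3.57 (noe).

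A called difference of at least 2-fold was found for 22 genes that were higher (10%) and 33 that were lower (15.1%), against 9.41% and 6.69% of all genes tested and 7.65% and 5.25% of the other genes at a mean of at least 1 CPM. The libraries of the genotypes did not overlap for 62 called genes (28.3%), 19 higher and 43 lower, against 18.5% of all genes tested and 20.6% of the other genes at a mean of at least 1 CPM. Among the 190 lncRNA genes at or above 1 CPM in both genotypes, 15 were at least 2-fold higher and 18 at least 2-fold lower. In this part of the set 15 higher and 30 lower calls had no overlap. Shares of other genes at or above 1 CPM in both genotypes are not given here, so these counts have no like background. The shares of 10%, 15.1% and 28.3% include lncRNA genes that had to differ. Of the 33 genes at least 2-fold lower, 15 were under 1 CPM in Notch RNAi libraries, and of the 22 at least 2-fold higher, 7 were under 1 CPM in control libraries. Lower calls were the more frequent in each overlap class. Of the 90 genes that overlap no other gene, 60.0% were called, 18 higher and 36 lower. Of the 50 in an intron, 62.0% were called, 10 higher and 21 lower. Of the 34 with exon overlap on the same strand, 64.7% were called, 7 higher and 15 lower. Of the 45 on the opposite strand, 60.0% were called, 11 higher and 16 lower. Among all genes tested 56.6% were called, 29.6% higher and 26.9% lower. The class counts include the genes that entered the set through 1 genotype and had to differ.

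CR44547 (FBgn0265740, 3L:11034802-11035905, plus strand) showed the largest fall. Like CR46002, CR44150, CR45039, CR43644, CR45179, CR44874 and CR46110 below, it averaged under 1 CPM in Notch RNAi libraries and entered the set through the control libraries, so its values describe a difference that the choice of genes required. Its lowest, median and highest values were 0.102, 0.332 and 0.528 CPM in Notch RNAi libraries, against 12.1, 17.5 and 21.2 CPM in control libraries. The ranges did not overlap, and the level was 55.5-fold lower in Notch RNAi (log2 fold change -5.79, SE 0.25, edgeR adjusted p = 7.45e-11). The gene overlaps no other gene, and its nearest coding gene, CG43693 at 453 bases, had 690 CPM in Notch RNAi and 1228 CPM in control libraries (log2 fold change -0.82). CR46002, in an intron of klar, a gene for a protein that links nuclei to microtubule motors, had 0.0995, 0.252 and 0.513 CPM in Notch RNAi libraries and 1.22, 3.05 and 6.31 CPM in control libraries (lowest, median, highest). It fell by 3.64 on the log2 scale (SE 0.33, edgeR adjusted p = 1.46e-07), while klar itself fell by 0.20. CR44150 (FBgn0264999, 2L:9669640-9671070), 11245 bases from the nearest coding gene, averaged 0.251 CPM in Notch RNAi and 2.31 CPM in control libraries, a log2 fold change of -3.15 (SE 0.24, edgeR adjusted p = 1.56e-08).

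**Figure D2:**
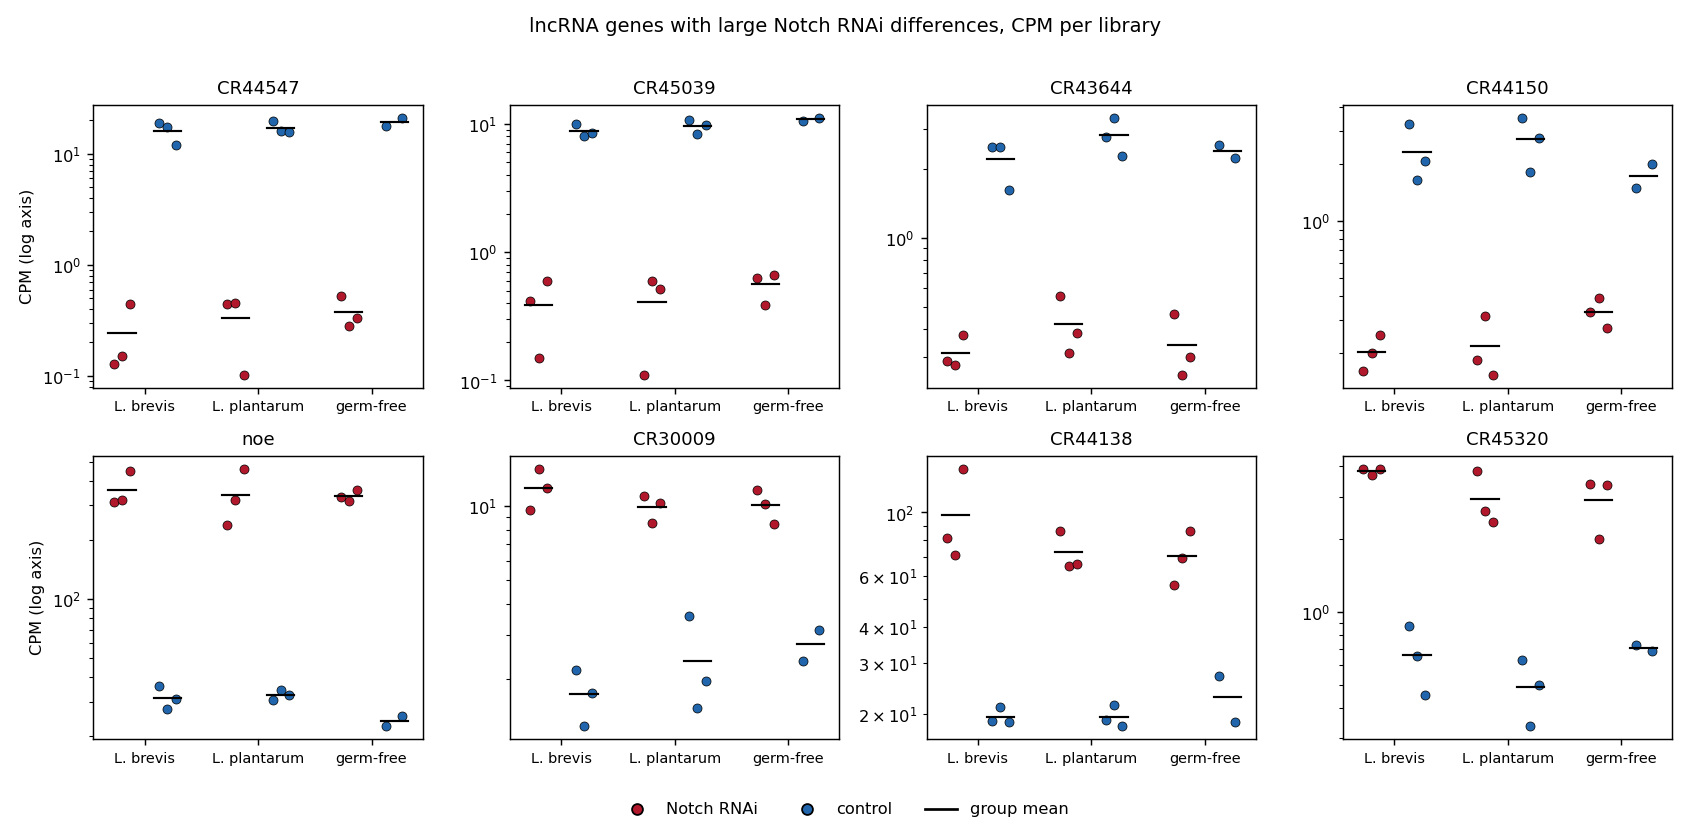
CPM per library (log axes that do not start at 0) of 8 lncRNA genes with large differences, in Notch RNAi and control libraries of each microbiome condition, with group means as lines. CR44547, CR45039, CR43644 and CR44150 in the upper row are lower, and noe, CR30009, CR44138 and CR45320 in the lower row higher, in every Notch RNAi library than in any control library.

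Falls were also found within the E(spl) complex on 3R, whose HLH genes encode repressors that carry out Notch signals. CR45039 (FBgn0266399, 3R:26006502-26007073, minus strand) lies between E(spl)mbeta-HLH and E(spl)malpha-BFM without overlapping either. It had 0.111, 0.512 and 0.663 CPM in Notch RNAi libraries and 8.10, 9.83 and 11.2 CPM in control libraries (lowest, median, highest). The groups were far apart, with a log2 fold change of -4.42 (SE 0.25, edgeR adjusted p = 7.56e-10). E(spl)mbeta-HLH, 479 bases away, averaged 8.65 CPM in Notch RNAi and 408.5 CPM in control libraries (log2 fold change -5.55). CR43644 (FBgn0263653, 3R:26020479-26021076, minus strand), 747 bases from E(spl)m3-HLH, had 0.251, 0.314 and 0.554 CPM in Notch RNAi libraries and 1.62, 2.50 and 3.37 CPM in control libraries. Its groups did not overlap either (log2 fold change -2.79, SE 0.20, edgeR adjusted p = 9.56e-09). E(spl)m3-HLH fell by 6.14 on the log2 scale. CR45040 fell by 1.24 (SE 0.14, edgeR adjusted p = 1.7e-06), but all of its exon lies within Kaz-m1, which fell by 0.54, so its own level is uncertain. Among lncRNA genes of the complex below the level threshold, CR45037 and CR43643 had log2 fold changes of -3.47 and -2.28, at 0.0280 and 0.272 CPM in Notch RNAi against 0.327 and 1.25 CPM in control libraries. Within the same interval E(spl)m8-HLH was higher in Notch RNAi libraries, at 4.39 CPM against 0.657 CPM in controls (log2 fold change 2.89).

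The remaining large falls were CR45179 in an intron of CG43954 (-2.64), CR44874 (-2.45) and CR46110 (-2.30), all on the log2 scale. CR46110 lies in an intron of kay, which encodes the Fos transcription factor and had a log2 fold change of -0.20. CR45179 had 0.259, 0.373 and 1.06 CPM in Notch RNAi libraries and 2.16, 2.94 and 3.46 CPM in control libraries, while CG43954 did not pass the test (log2 fold change -0.16, edgeR adjusted p = 0.0879). CR44874 averaged 0.380 CPM in Notch RNAi libraries against 1.99 CPM in control libraries, and its neighbour CG33301 fell by 1.63.

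Several lncRNA genes are precursors of microRNAs. CR43650, the host of mir-8, a microRNA known to restrain escargot and growth pathways in flies, had 0.528, 1.66 and 2.24 CPM in Notch RNAi libraries and 3.83, 4.64 and 6.83 CPM in control libraries (lowest, median, highest). All control libraries were above all Notch RNAi libraries, and the log2 fold change was -1.86 (SE 0.19, edgeR adjusted p = 3.94e-07). CR42651, the host of mir-10 in the Hox cluster, fell by 0.81 (SE 0.12, edgeR adjusted p = 2.74e-05). let7C, the shared precursor of mir-100, let-7 and mir-125, which time development, had 8.17, 9.75 and 11.1 CPM in Notch RNAi libraries and 11.2, 12.2 and 15.8 CPM in control libraries. Its difference was small but without overlap (log2 fold change -0.40, SE 0.09, edgeR adjusted p = 0.00096). A stretch of 6.9% of its exon is shared with CG10283 on the opposite strand, which fell by 0.70. CR43836, the host of mir-31b, was higher at 18.9 CPM in Notch RNAi against 7.57 CPM in control libraries (log2 fold change 1.29, edgeR adjusted p = 1.38e-09), with 29.3% of its exon in CG10962, which rose by 1.33. CR31044, the host of mir-279 and mir-996, was higher by 0.27 (edgeR adjusted p = 0.00242) with overlapping groups. The hosts of mir-277 and mir-34 (CR43459, log2 fold change 0.09), mir-276a (CR46006, -0.16), mir-14 (CR43651, 0.13), mir-184 (CR44206, 0.04), mir-275 (CR43857, 0.28) and mir-bft (CR43314, 0.29) did not pass the test. The libraries count gene models, so these values concern precursor transcripts and not mature microRNAs.

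Of the targets and partners of let-7 that were listed, lin-28, a repressor of let-7 maturation in mammals and a stem cell factor in the fly gut, averaged 94.8 CPM in Notch RNAi and 257 CPM in control libraries (log2 fold change -1.50, edgeR adjusted p = 1.76e-09). EcR, the ecdysone receptor gene, fell by 0.44, and the let-7 target ab had a log2 fold change of 0.02 (edgeR adjusted p = 0.953), so 2 of the 3 listed genes were lower and 0 higher, with a median of -0.44. Of all genes tested 26.9% were lower and 29.6% higher, with a median of 0.02.

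Among the rises, noe (FBgn0026197, 3L:17400272-17401348, minus strand, in an intron of the transporter gene blot) stood apart in level and size. It had 312.9, 319.5 and 449.5 CPM in L. brevis, 238.8, 321.5 and 460.9 CPM in L. plantarum and 332.0, 315.1 and 360.4 CPM in germ-free Notch RNAi libraries. Controls had 36.3, 27.4 and 31.0 CPM with L. brevis, 30.7, 34.7 and 32.7 CPM with L. plantarum, and 22.6 and 25.3 CPM in germ-free flies. Every Notch RNAi library lay far above every control library, and the mean level was 11.9-fold higher (log2 fold change 3.57, SE 0.14, edgeR adjusted p = 2.9e-11). The host gene blot rose by 1.17, to 12.9 CPM in Notch RNAi against 5.39 CPM in control libraries.

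CR30009 (2R:10261315-10263827) had 8.44, 10.3 and 14.1 CPM in Notch RNAi libraries and 1.29, 2.06 and 3.59 CPM in control libraries (lowest, median, highest), a rise of 2.24 on the log2 scale (SE 0.17, edgeR adjusted p = 2.28e-08). CR44138, in an intron of CG9813, had 55.8, 71.4 and 141.7 CPM in Notch RNAi libraries and 18.2, 19.0 and 27.2 CPM in control libraries, and rose by 1.94 (SE 0.15, edgeR adjusted p = 4.51e-08). Neither gene had overlapping groups, and CG9813 rose by 1.75 alongside its intronic lncRNA. CR45320, 117 bases from Fa2h, which encodes a fatty acid hydroxylase, averaged 3.23 CPM in Notch RNAi and 0.609 CPM in control libraries (log2 fold change 2.38), and Fa2h rose by 1.94. CR43461, in an intron of CG3168, averaged 2.77 CPM against 0.401 CPM in controls (log2 fold change 2.80), while CG3168 did not pass the test (0.19, edgeR adjusted p = 0.827). CR45320, CR43461, CR44042 and CR44050 averaged under 1 CPM in control libraries and entered the set through the Notch RNAi libraries. CR44042 (2.11), CR45596 (1.94) and CR43264 (1.88) completed the 8 largest rises that met the rule for naming. CR44050 had a log2 fold change of 2.86 (edgeR adjusted p = 0.00143) but overlapping groups, with 7.45 CPM in germ-free Notch RNAi replicate 2 and 0.377 to 3.92 CPM in the other Notch RNAi libraries.

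Hsromega (FBgn0001234, 3R:21296127-21317836), whose nuclear transcripts organise the omega speckles that hold RNA-binding proteins, differed with the bacteria present as well as with the genotype. It had 1925, 1701 and 1527 CPM in L. brevis, 905.9, 957.6 and 1154 CPM in L. plantarum and 1051, 826.6 and 669.0 CPM in germ-free Notch RNAi libraries. Controls had 1386, 1615 and 1900 CPM with L. brevis, 1768, 1457 and 1374 CPM with L. plantarum, and 2395 and 2425 CPM in germ-free flies. Germ-free and L. plantarum Notch RNAi libraries lay below all of their own controls, whereas with L. brevis the genotypes overlapped. The log2 difference of Notch RNAi from control was -1.51 in germ-free flies (SE 0.18, edgeR adjusted p = 1.29e-05), -0.61 with L. plantarum (SE 0.16, edgeR adjusted p = 0.00818) and, in the L. brevis libraries, 0.07 (SE 0.16, edgeR adjusted p = 0.75). Of 8 listed genes for omega speckle proteins, 5 were higher in Notch RNAi libraries on average and 0 lower, with a median log2 fold change of 0.32, against 29.6% higher and 26.9% lower among all genes tested, with a median of 0.02. Iswi (0.60), caz (0.54) and Hrb87F (0.51) rose most, and the hnRNP gene sqd did not pass the test (-0.11, edgeR adjusted p = 0.0634).

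The alphagamma-element:CR32865 had 271.1, 438.5 and 655.8 CPM in Notch RNAi libraries and 138.3, 249.5 and 472.3 CPM in control libraries (lowest, median, highest). The ranges overlapped, and the mean log2 fold change was 0.82 (SE 0.17, edgeR adjusted p = 0.00109). In L. brevis flies the difference was 1.24 and passed the test, and in L. plantarum flies 0.32 (edgeR adjusted p = 0.417). In germ-free flies Notch RNAi libraries had 305.4, 271.1 and 318.3 CPM and control libraries 138.3 and 185.3 CPM, with no overlap, but the difference of 0.88 did not pass the test. Of its 1357 exon bases, 1027 lie in an annotated transposon, and reads of that element elsewhere cannot be told apart from its own with certainty.

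roX1, an RNA of the complex that raises transcription of the male X chromosome and is normally kept silent in females, had 8.85, 3.70 and 1.97 CPM in L. brevis Notch RNAi libraries against 0.540, 1.09 and 1.46 CPM in L. brevis control libraries. In the other Notch RNAi libraries it lay between 1.44 and 4.66 CPM, and in the other controls between 1.26 and 2.29 CPM. The level was low throughout, and replicate 1 of the L. brevis Notch RNAi group stood highest. The mean log2 fold change was 1.06 (SE 0.34, edgeR adjusted p = 0.0133), and 0.0507 was the adjusted p without germ-free control replicate 1. Its exon overlaps that of ec on the opposite strand over 7.2% of its length, and ec fell by 0.94. roX2, below the level threshold, averaged 0.658 CPM in Notch RNAi and 0.114 CPM in control libraries. Of 6 listed genes for the dosage compensation complex and its recruitment, 1 was higher (Clamp, 0.13) and 1 lower (msl-3, -0.83), with a median of -0.01, against 29.6% higher and 26.9% lower among all genes tested.

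CRG, an RNA known to promote expression of the neighbouring synaptic scaffold gene CASK, fell by 0.56 (SE 0.12, edgeR adjusted p = 0.000672), but its whole exon lies within CASK, which fell by 0.66, so reads of the pair cannot be told apart. sphinx, a young chimeric RNA gene with a role in male courtship, averaged 2.06 CPM in Notch RNAi and 1.00 CPM in control libraries (log2 fold change 1.02, edgeR adjusted p = 0.00542), with 39.5% of its exon opposite fuss, which rose by 0.58. mimi (0.57, edgeR adjusted p = 0.00136) and dntRL (0.91, edgeR adjusted p = 0.000683) were higher. marge, at 4.08 CPM in Notch RNAi and 3.81 CPM in control libraries, did not pass the test (log2 fold change 0.06, edgeR adjusted p = 0.775). In all, 10 lncRNA genes of the set have a name of their own. A further 24 named lncRNA genes were below the threshold, 14 of them with a count of 0 in every library. Among these, cherub, which accumulates in neural stem cell tumours of the fly, had 20 counts over all libraries. Of its 3 listed protein partners, stau (-0.29) and Syp (-0.68) were lower and Imp did not pass the test (-0.17, edgeR adjusted p = 0.463), against 26.9% lower among all genes tested.

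Genes for RNA 3' end processing and decay, which limit many non-coding transcripts, were listed as well. Of these 6 genes, IntS1 (0.33), IntS4 (0.50), IntS11 (0.10) and Mtr4 (0.26) were higher in Notch RNAi libraries, 0 were lower, and Rrp6 (0.12) and Dis3 (0.11) did not pass the test. Their median was 0.19, and 29.6% of all genes tested were higher, with a median of 0.02.

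Next, each lncRNA gene was set beside the gene it overlaps or lies nearest to. For genes with exon overlap, the log2 fold changes of lncRNA and partner followed each other (Pearson r = 0.80 across 76 pairs, median absolute difference 0.10). CR45217 with CR44092 and CR45269 with CR42868 are counted from each side in these pairs, since both genes belong to the set. Of the 43 pairs with both genes called, 40 had the same direction and 3 opposite directions. Where at least 50% of the lncRNA exon was shared, all 19 pairs with both genes called had the same direction. CR44999, with 91.8% of its exon in the growth regulator gene Myc, had a log2 fold change of -1.05 beside -1.03 for Myc. CR45975, wholly within the cell death gene grim, had 1.71 beside 1.67. These pairs share reads by position, so their values are not separate measurements. The opposite pairs, with smaller shared stretches, were roX1 and ec, CR44320 (0.94) and CG12290 (-0.27), and CR45018 (0.78) and the inositol kinase gene IP3K2 (-0.25).

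For lncRNA genes without overlap and within 1 kb of a protein-coding gene, the relation was looser. The correlation was 0.46 across 65 pairs, with a median absolute difference of 0.82. These pairs include large falls of both genes, CR45039 (-4.42) with E(spl)mbeta-HLH (-5.55) and CR43644 (-2.79) with E(spl)m3-HLH (-6.14). Both of these lncRNA genes entered the set through the control libraries. The part of these E(spl) pairs in the correlation was not tested. Of 34 pairs with both genes called, 20 had the same direction and 14 opposite directions. In CR45517 and CG16756, 266 bases apart, the lncRNA had 12.0 CPM in Notch RNAi and 35.1 CPM in control libraries (log2 fold change -1.57), while CG16756 had 1.74 CPM and 0.282 CPM (2.80). CR43148 fell by 1.62 at 119 bases from Df31, a gene for a chromatin-opening protein, which rose by 0.69. CR44517 fell by 2.13 at 528 bases from CG7065, which rose by 0.58. CR43126 fell by 0.89 at 784 bases from fkh, which encodes a FoxA transcription factor and rose by 0.23. CR45596 rose by 1.94 at 406 bases from red, which fell by 0.18, and CR44785 rose by 0.62 at 73 bases from crc, which encodes the ATF4 factor and fell by 0.52. Hsromega fell and its neighbour aus at 464 bases rose by 0.80. For genes in introns the correlation was 0.56 across 47 pairs and the median absolute difference 0.59, both between those of the sets above. Of 18 such pairs with both genes called, 17 had the same direction. Their exception was CR43855 (-0.78) in Sema1a (0.49). The call of CR43855 was not kept under every alternative processing, over which its mean log2 fold change lay between -0.91 and -0.61. Of lncRNA genes without overlap and over 1 kb from the nearest coding gene, 17 had a tested neighbour, with a correlation of 0.32 and a median absolute difference of 0.73. Among 9 of these pairs with both genes called, 8 had the same direction. Correlations are descriptions over gene pairs that share libraries and neighbourhoods, and genes are not independent replicates.

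**Figure D3:**
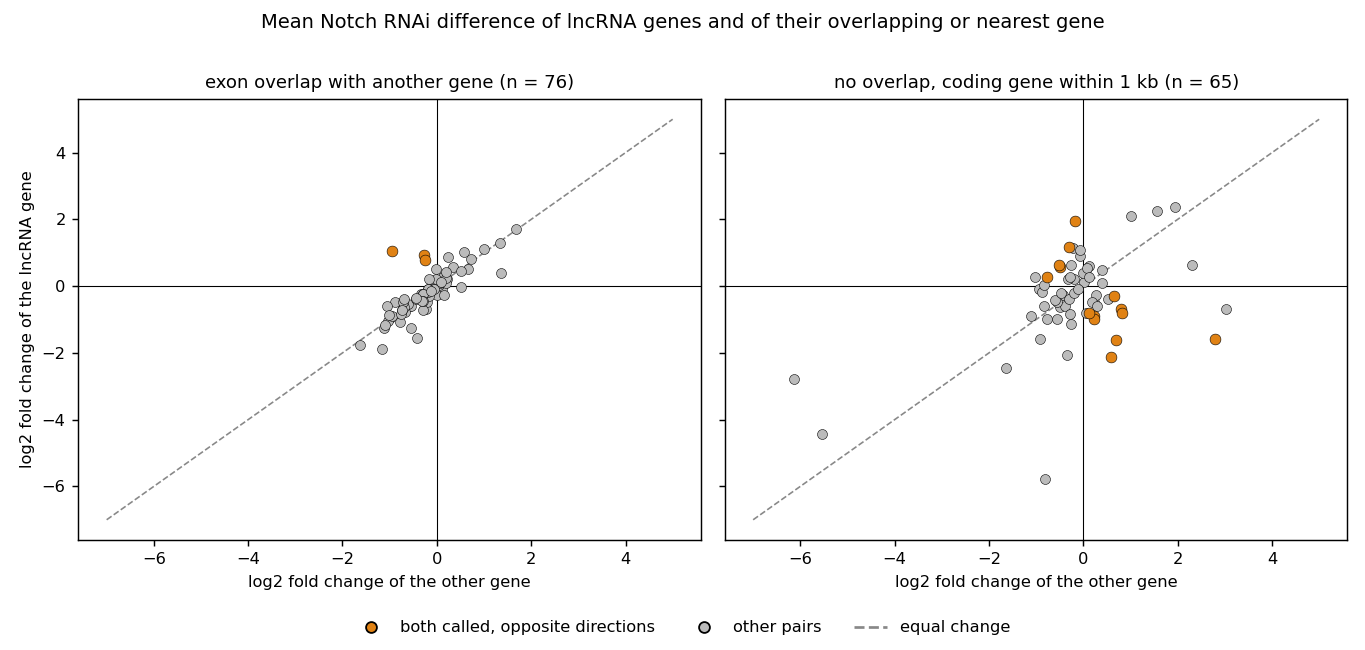
Log2 fold change of Notch RNAi over control for each lncRNA gene (vertical axis) and for the gene whose exon it overlaps (left, 76 pairs) or the nearest protein-coding gene within 1 kb (right, 65 pairs). Pairs called in opposite directions are orange, 3 on the left and 14 on the right. Points on the left follow the dashed line of equal change, and those on the right spread around it. On the left, overlapping lncRNA genes that both belong to the set appear from each side.

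Within each microbiome condition the lower calls again outnumbered the higher ones. Without bacteria 91 lncRNA genes passed, 27 of them higher and 64 lower in Notch RNAi, against 32.2% of all genes tested, with 17.5% higher and 14.7% lower. Among L. brevis flies the number was 107, with 42 higher and 65 lower, against 42.6%, 22.3% and 20.3% of all genes tested. Among L. plantarum flies it was 83, with 27 higher and 56 lower, against 33.8%, 17.6% and 16.2%. As shares of the 219 genes, the higher calls were 12.3%, 19.2% and 12.3% and the lower calls 29.2%, 29.7% and 25.6% in germ-free, L. brevis and L. plantarum flies. A total of 135 lncRNA genes passed in 1 condition or more. Of these, 61 passed in all 3, with 17 higher and 44 lower throughout, and 0 passed in opposite directions. That is 27.9% of the 219 genes, against 20% of all genes tested, which include genes under 1 CPM. The counts of lncRNA genes include those that entered the set through 1 genotype and had to differ. The 3 comparisons share no libraries, but they come from 1 fit with a shared estimate of the spread. CR44547 had log2 fold changes of -5.99 with L. brevis, -5.71 with L. plantarum and -5.68 in germ-free flies, and noe had 3.51, 3.38 and 3.81. CR44888, in an intron of the Golgi gene Gmap, rose in all 3 conditions (1.67, 1.85 and 2.07). Conditions were further apart for CR45179. Under the alternative processings its change lay at -3.11 to -2.91 (L. brevis), -3.37 to -3.12 (L. plantarum) and -2.0 to -1.45 (germ-free). A difference of its effect between conditions was not called. CR44050 had 0.726, 7.45 and 0.663 CPM in germ-free Notch RNAi libraries and 0.243 and 0 CPM in germ-free control libraries (log2 fold change 4.43, SE 1.30, edgeR adjusted p = 0.0182). Without germ-free Notch RNAi replicate 2, without germ-free control replicate 2 or with the compared groups fitted alone the call was lost, with adjusted p up to 0.177.

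**Figure D4:**
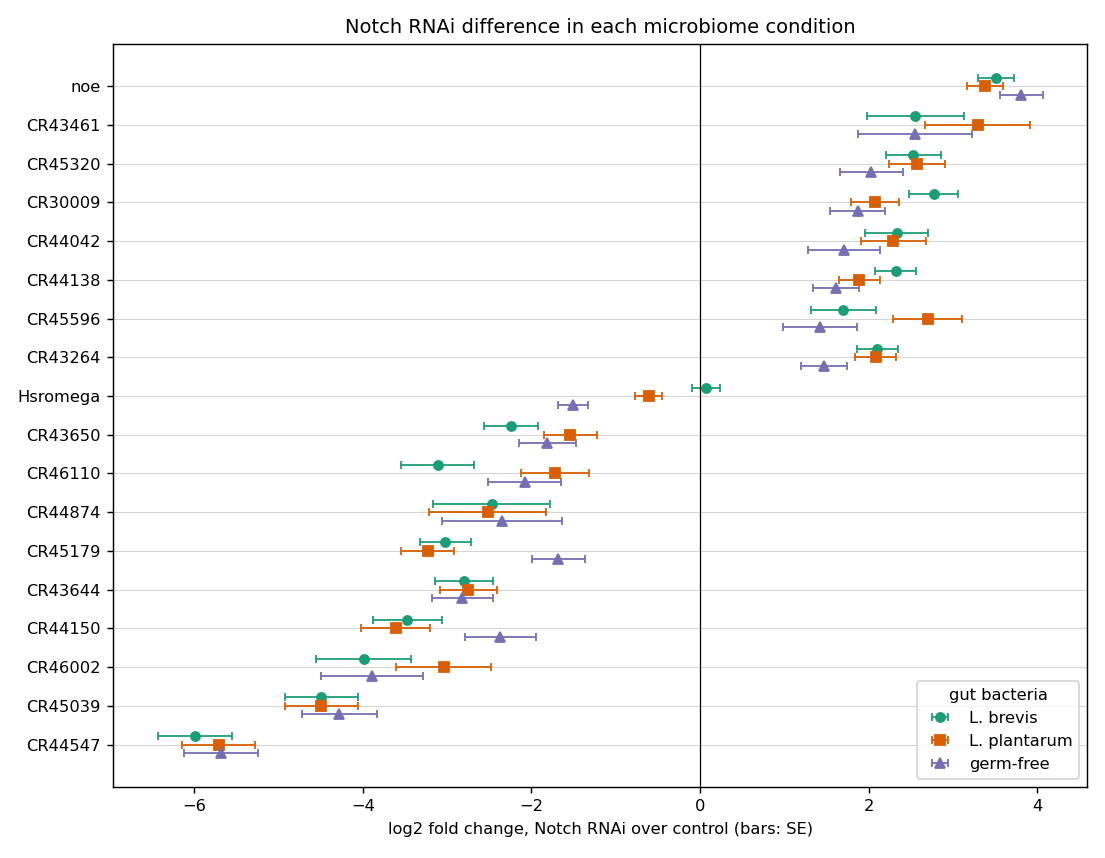
Log2 fold change of Notch RNAi over control in flies with L. brevis (circles), with L. plantarum (squares) and without bacteria (triangles) for 18 lncRNA genes, with standard errors as bars. The distance between conditions varies by gene, and Hsromega is at 0.07 with L. brevis, at -0.61 with L. plantarum and at -1.51 in germ-free flies.

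Bacteria were accompanied by fewer differences than Notch knockdown. Within the Notch RNAi genotype, 15 lncRNA genes (6.85%) were called for L. brevis against germ-free, 8 higher and 7 lower, against 9.36% of all genes tested, with 4.87% higher and 4.49% lower. L. brevis against L. plantarum gave 18 (8.22%), 9 higher and 9 lower, against 14.4%, 7.36% and 7.0% of all genes tested. Both comparisons use the same L. brevis libraries. L. plantarum against germ-free gave 0 called lncRNA genes in Notch RNAi flies, against 0.136% of all genes tested, with 30 at an unadjusted p under 0.05 in edgeR and 0 called by DESeq2. For L. plantarum against germ-free, 16 of all 11786 genes tested were called, too few to compare shares. In the comparisons of L. brevis with germ-free and with L. plantarum, the lncRNA shares lay below those of all genes tested. The 333 antisense RNA genes at the same threshold had shares of 7.51% and 9.91% there. The part of the low levels of lncRNA genes in these shares was not tested. Beside these differences, enteroendocrine markers summed to 16430 to 27940 CPM in L. brevis, 30160 to 36180 CPM in L. plantarum and 40040 to 52520 CPM in germ-free Notch RNAi libraries, and ribosomal RNA genes took 10.9% to 11.8%, 10.6% to 12.5% and 13.7% to 18.4% of the counts. Their part in the bacterial differences was not tested.

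Of the named lncRNA genes called between L. brevis and germ-free Notch RNAi flies, 4 stayed called under every alternative processing. Hsromega was higher with L. brevis by 1.02 on the log2 scale (SE 0.16, edgeR adjusted p = 0.00217), with no overlap between the 3 libraries of each group given above. CR43855, in an intron of the guidance receptor gene Sema1a, had 1.38, 1.66 and 2.24 CPM with L. brevis and 0.198, 0.363 and 0.332 CPM in germ-free Notch RNAi libraries (log2 fold change 2.54, SE 0.47, edgeR adjusted p = 0.00498). CR44320 had 6.89, 8.93 and 11.8 CPM with L. brevis and 15.3, 20.9 and 18.8 CPM in germ-free Notch RNAi libraries (log2 fold change -0.99, SE 0.19, edgeR adjusted p = 0.00621). In both genes the groups were fully separate, in opposite directions. CR44097 had 46.0, 46.9 and 48.2 CPM with L. brevis and 15.8, 19.1 and 25.4 CPM in germ-free Notch RNAi libraries, a rise of 1.22 (SE 0.19, edgeR adjusted p = 0.00204). All of the exon of CR44097 lies within CG6000, so the difference cannot be assigned to the lncRNA.

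**Figure D5:**
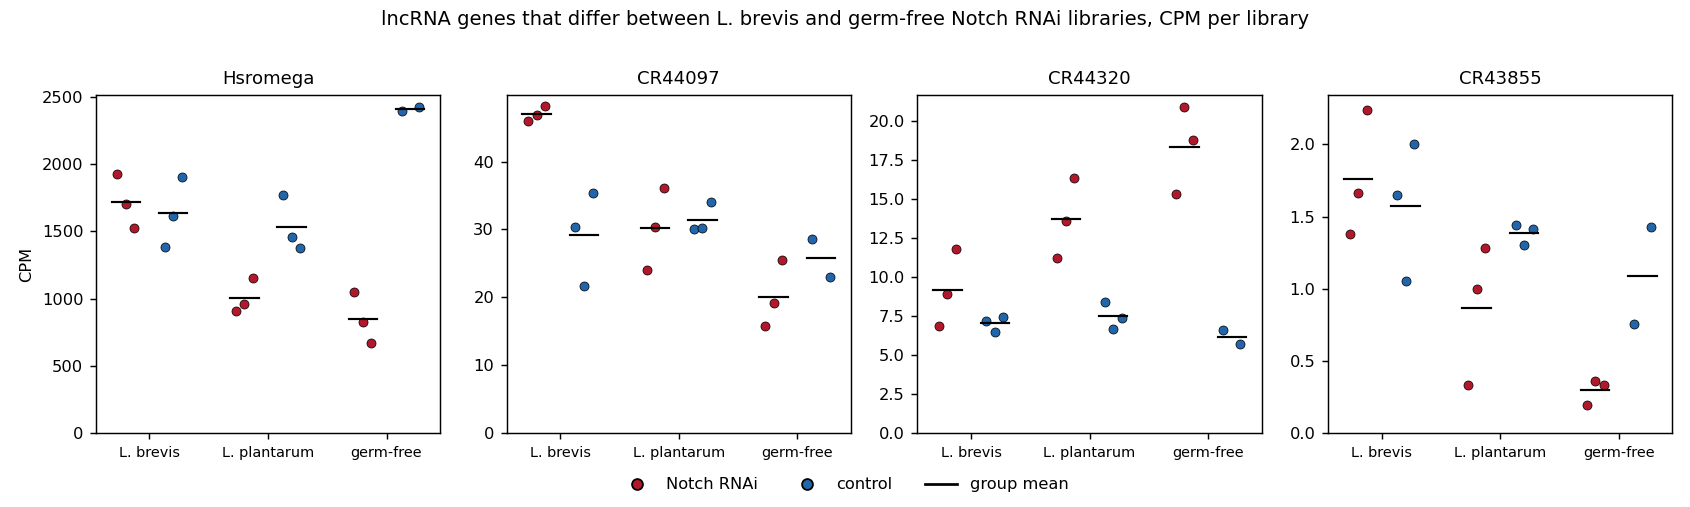
CPM per library (linear axes from 0) of Hsromega, CR44097, CR44320 and CR43855 in Notch RNAi and control flies of each microbiome condition, with group means as lines. In Notch RNAi flies, L. brevis libraries lie above germ-free libraries for Hsromega, CR44097 and CR43855 and below them for CR44320.

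The other named calls between bacteria in Notch RNAi flies were less firm. CR44757 (1.30) and CR44478 (1.2) were higher and CR45036 (-1.74) and CR46041 (-1.29) lower in L. brevis than in germ-free libraries; 16.7% of the exon of CR45036 is shared with CG6163. CR44478 lies in an intron of Socs36E, an inhibitor of JAK/STAT signalling. CR45607, near upd2, was lower with L. brevis, at 52.7, 50.9 and 51.7 CPM against 126.2, 80.5 and 79.2 CPM in germ-free Notch RNAi libraries (log2 fold change -0.88, edgeR adjusted p = 0.0446). The groups did not overlap, and germ-free replicate 1 stood highest. Without germ-free Notch RNAi replicate 2, 4 lncRNA genes in all were called in that comparison. Against L. plantarum, CR42862 was lower with L. brevis at 441.9, 433.9 and 315.8 CPM, against 877.1, 984.6 and 752.2 CPM with L. plantarum (log2 fold change -1.13, edgeR adjusted p = 0.0163), and 4.5% of its exon is shared with CG33229. Without L. plantarum Notch RNAi replicate 2, 1 lncRNA gene was called there.

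Within the control genotype, 11 lncRNA genes (5.02%) were called for L. brevis against germ-free, 3 higher and 8 lower, against 7.97% of all genes tested, with 5.01% higher and 2.95% lower. L. brevis against L. plantarum gave 4 (1.83%), 1 higher (0.457%) and 3 lower (1.37%), against 2.81%, 0.976% and 1.83% of all genes tested. L. plantarum against germ-free gave 0 lncRNA genes, against 0.161% of all genes tested, with 36 at an unadjusted p under 0.05 in edgeR and 6 called by DESeq2. CR43459, the host of mir-277 and mir-34, had 6.41, 10.7 and 7.61 CPM with L. brevis and 19.7 and 17.1 CPM in germ-free control libraries (log2 fold change -1.16, SE 0.22, edgeR adjusted p = 0.0103). CR45635 had 3.24, 1.98 and 2.20 CPM with L. brevis and 7.52 and 5.70 CPM in germ-free control libraries (-1.42, SE 0.33, edgeR adjusted p = 0.0198). Both were lower in every L. brevis library, but the germ-free control group has 2 libraries, and without its replicate 1 no lncRNA gene was called in this comparison, and without its replicate 2 there was 1. CR43241, with 42.4% of its exon in CG42748, was higher in L. brevis control libraries than in germ-free ones (0.53) and than in L. plantarum ones (0.51). CR45962, with 25.4% of its exon in the teneurin gene Ten-m, was lower by 0.92 and by 0.89, and these comparisons share the L. brevis control libraries.

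A difference of the Notch RNAi effect between bacteria was called for 1 lncRNA gene. For Hsromega the effect with L. brevis exceeded that in germ-free flies by 1.58 on the log2 scale (SE 0.24, edgeR adjusted p = 0.0173), against 0.798% of all genes called for that term. The call was lost without germ-free control replicate 1, without germ-free control replicate 2 or without germ-free Notch RNAi replicate 2, where the highest adjusted p was 0.0634. For this term 52 of the 219 genes had an unadjusted p under 0.05 and DESeq2 called 17. The L. plantarum effect against the germ-free effect gave 0 lncRNA genes in edgeR, against 0.0255% of all genes, with 38 at an unadjusted p under 0.05 and 4 called by DESeq2. The L. brevis effect against the L. plantarum effect gave 0, against 0.017%, with 28 at an unadjusted p under 0.05 and 1 called by DESeq2.

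The authors' deposited tables list 216 of the 219 lncRNA genes. At a false discovery rate under 0.05, the authors' deposited tables hold 90, 114 and 87 of them for Notch RNAi against control in germ-free, L. brevis and L. plantarum flies, 88, 106 and 82 of which were also called here. For bacteria, the authors' deposited tables hold more than were called here: 19 against 15 for L. brevis over germ-free and 26 against 18 for L. brevis over L. plantarum in Notch RNAi flies, and 6 against 4 for L. brevis over L. plantarum in controls. For L. plantarum over germ-free the authors' deposited tables hold 0 in Notch RNAi flies and 4 in controls, where 0 were called here in each. The log2 fold changes in the authors' deposited tables differed from those computed here by at most 0.03.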

How the data were processed

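RNA-seq libraries of 17 samples in 6 groups were analysed. The authors deposited whole-number read counts per gene for 17737 genes, and 8 tables of comparisons with log2 fold changes and p-values adjusted as false discovery rates. Per the submitters' processing notes, FastQC, Trimmomatic, HISAT2, SAMtools and edgeR were used; their options, the counting tool, the use of strand and the genome build are not given in the sources used here. Symbols matched 17599 identifiers, and coordinates and overlaps come from Ensembl's annotation of BDGP6 (release 115), which may differ from the authors' build. No sequences are printed.

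Counts were analysed with edgeR 4.0.16 in R 4.3.3. Genes were filtered with filterByExpr, which kept 11786 genes with 99.98% of the counts and all 219 lncRNA genes. Libraries were scaled by TMM, and 1 quasi-likelihood fit with a mean per group used all 17 libraries (common biological coefficient of variation 0.23). P-values were adjusted by Benjamini-Hochberg over the 11786 genes, with calls at an adjusted p under 0.05. Each SE is the absolute log2 change divided by the square root of F. The fit was run on data simulated from these counts with the same spread for every gene (coefficient of variation 0.23). Such data cannot test the fit for genes with a larger spread. Intervals of counts are not given, since reads without molecular identifiers are not independent molecules. Replicates are separate pools of guts. Each p-value sets a difference of group means against a spread between such pools, estimated over all 17 libraries.

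The lncRNA genes and all lists were chosen with earlier results of these data known. Named genes were those with a name of their own, the 6 highest per kb, the 8 largest rises and falls of the mean Notch RNAi effect and the 4 largest of each other comparison among called genes without overlap between groups whose higher group had 20 counts or more per library, those at the threshold, their overlapping genes and hosted small RNAs, and the lists. Genes shown for their neighbours and CR44050 in the mean effect were chosen after their values were seen. Alternatives were DESeq2 1.42.0, median-ratio scaling, no filter, no ribosomal RNA genes, a replicate block, the compared groups alone and leaving out each library.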

Additional observations from a re-analysis of the deposited data

Results flagged for a closer look

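The Notch RNAi effect on Hsromega differed between flies with L. brevis and germ-free flies by 1.58 on the log2 scale (SE 0.24, edgeR adjusted p = 0.0173 for the difference itself). In L. brevis flies the genotypes averaged 1718 CPM in Notch RNAi and 1634 CPM in control libraries, and in germ-free flies 849 CPM in Notch RNAi and 2410 CPM in control libraries. All 3 germ-free Notch RNAi libraries lay below both germ-free control libraries. The difference ran from 1.43 to 1.76 over the 16 alternatives, and in 3 of them, each without a germ-free library, the adjusted p passed 0.05.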

How the results depend on the processing

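Over the named genes, 119 of 179 calls were kept under every alternative, 60 were lost under at least 1 and 0 changed direction; of the 37 calls on bacteria or their interaction, 4 were kept. Leaving out each library gave 123 to 137 called lncRNA genes for the mean Notch RNAi effect, 63 to 83 in germ-free, 99 to 106 in L. brevis and 73 to 81 in L. plantarum flies. It gave 4 to 16 for L. brevis against germ-free and 1 to 14 for L. brevis against L. plantarum in Notch RNAi flies, 0 to 9 and 0 to 11 for the same comparisons in controls, and 0 to 8 for the L. brevis minus germ-free difference of Notch effects. In Notch RNAi flies the count moved by more than 1.5 times without germ-free replicate 1 (8) or 2 (4) or L. brevis replicate 1 (9) or 2 (5) against germ-free, and without L. brevis replicate 1 (5), 2 (2) or 3 (9) or L. plantarum replicate 1 (7) or 2 (1) against L. plantarum. In controls it moved without germ-free replicate 1 (0) or 2 (1) or L. brevis replicate 1 (5) against germ-free, and without any of L. brevis replicates 1 (0), 2 (1) and 3 (1) and L. plantarum replicates 1 (11), 2 (0) and 3 (0) against L. plantarum. The interaction count was 8 without L. brevis Notch RNAi replicate 3, 5 without L. brevis control replicate 2 and 2 without germ-free Notch RNAi replicate 1.

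DESeq2 called 25 and 28 lncRNA genes for L. brevis against germ-free and against L. plantarum in Notch RNAi flies, 20 and 9 in controls, 6 for L. plantarum against germ-free in controls, and 17, 4 and 1 for the differences of Notch effects L. brevis minus germ-free, L. plantarum minus germ-free and L. brevis minus L. plantarum. Fitted alone, the compared control groups gave 0 for L. brevis against germ-free and 0 against L. plantarum. Without the filter on low counts, L. brevis against germ-free in Notch RNAi flies gave 9. The cause was not tested. The replicate block gave 133 for the mean Notch RNAi effect and 2 for the L. brevis minus germ-free difference; same-numbered samples did not deviate together (correlations from -0.147 to 0.181, 7 of 40 over 0.1), so the numbers were not taken to pair samples. Depth sets how small a difference could be called; its effect by level was not tested.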
